A study of Mus musculus with 2 samples.

Results

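The 38 genes described here are interferon-stimulated genes of the mouse, chosen by symbol from the 31053 genes of 2 single-cell RNA libraries of colonic epithelium. All 38 symbols had a single row in both count matrices, and every member had at least 20 unique molecular identifiers (UMIs, the molecules counted once each) over both libraries. The library labelled whole epithelium came from untreated c-Kit-creERT2 mice and held all epithelial cells. For the library labelled GFP, mice of genotype c-Kit-creERT2;Rosa26-mTG had received tamoxifen in 1 injection (1 mg for every 20 g), and their colonic cells had been sorted for GFP. The c-Kit-creERT2 allele, a tamoxifen-dependent recombinase expressed from the Kit gene, was common to both groups. GFP therefore marks cells that expressed Kit when tamoxifen was present, together with their descendants. Ages, the number of mice and the time from injection to collection are not given in the sources used here. Each group is 1 library, so no p-value is given, and each interval is a 95% interval for counting error only. The 2 matrices and barcode lists are crossed in the records, and each matrix was assigned to the barcode list of its own size, so every direction between the libraries rests on that assignment.

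Interferons are secreted proteins that warn cells of infection. Type I and type III interferons act through their receptors, JAK kinases and a complex that holds STAT2 and IRF9, which binds interferon-stimulated response elements in the promoters of these genes. Interferon gamma acts through another receptor and other promoter letters, the interferon-gamma activated sites. In the gut epithelium type III interferon is an important inducer of such genes, and the products sense foreign nucleic acids, block translation of viral RNA, degrade RNA or tag proteins with ISG15.

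The promoter letters of the members are shown first because they rest on no expression value. RefSeq promoter windows (build GRCm38.p6) were found for 27 of the 38 members. In the 250 bases before the transcription start, the core of an interferon-stimulated response element, GAAA and GAAA with any 2 bases between them, read on either strand, occurred in 14 of the 27 members (51.9%), against 3.46% of all 27025 genes with a window. The letters TTCNNNGAA of an interferon-gamma activated site occurred in 5 of the 27 (18.5%), against 8.13% of all genes. A match is a description of the letters and not a shown binding site, and a window with no match says only that these letters are not there. The 200 bases before the start are printed for 7 members that the results below turn on, 5' to 3' on the gene's strand, with matches to the first pattern in capitals:
Ifit1, chr19:34640689-34640888, plus strand: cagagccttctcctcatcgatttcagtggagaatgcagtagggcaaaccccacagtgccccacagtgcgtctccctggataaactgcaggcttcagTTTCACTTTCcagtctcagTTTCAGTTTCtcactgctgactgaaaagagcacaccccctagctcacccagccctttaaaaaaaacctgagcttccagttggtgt
Isg15, chr4:156200819-156201018, minus strand: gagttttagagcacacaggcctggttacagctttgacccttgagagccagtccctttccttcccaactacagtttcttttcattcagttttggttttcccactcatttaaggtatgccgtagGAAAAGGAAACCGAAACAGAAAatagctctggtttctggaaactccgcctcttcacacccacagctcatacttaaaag
Rsad2, chr12:26456453-26456652, minus strand: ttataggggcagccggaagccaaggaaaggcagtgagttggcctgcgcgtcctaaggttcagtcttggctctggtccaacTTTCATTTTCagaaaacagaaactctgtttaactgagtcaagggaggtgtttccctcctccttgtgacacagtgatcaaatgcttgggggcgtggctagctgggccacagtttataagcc
Ifit1bl1, chr19:34601969-34602168, minus strand: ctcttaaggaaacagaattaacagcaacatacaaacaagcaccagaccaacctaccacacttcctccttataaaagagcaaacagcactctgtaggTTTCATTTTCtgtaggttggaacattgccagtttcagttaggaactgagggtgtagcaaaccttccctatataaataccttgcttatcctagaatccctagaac
Bst2, chr8:71537473-71537672, minus strand: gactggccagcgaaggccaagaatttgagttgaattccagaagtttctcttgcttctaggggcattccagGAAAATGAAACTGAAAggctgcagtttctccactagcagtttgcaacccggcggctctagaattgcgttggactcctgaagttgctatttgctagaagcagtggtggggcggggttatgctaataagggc
Gbp2, chr3:142620463-142620662, plus strand: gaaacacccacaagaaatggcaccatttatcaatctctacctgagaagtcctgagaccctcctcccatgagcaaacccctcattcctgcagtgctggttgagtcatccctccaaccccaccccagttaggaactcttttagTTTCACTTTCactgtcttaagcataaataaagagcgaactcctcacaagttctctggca
Irf7, chr7:141266425-141266624, minus strand: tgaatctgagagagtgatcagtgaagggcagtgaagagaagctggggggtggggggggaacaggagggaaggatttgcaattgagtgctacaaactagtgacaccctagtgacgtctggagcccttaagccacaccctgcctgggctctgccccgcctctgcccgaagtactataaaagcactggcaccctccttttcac

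Overlapping matches ran together in Isg15 (3 matches, the nearest 66 bases before the start) and in Bst2 (2 matches). Ifit1 held 2 separate matches, Rsad2 and Gbp2 held 1 each, and the Ifit1bl1 window shown held 1. Irf7 held no match in this window. The genes lie in several chromosomal groups in GRCm38 (GENCODE M21): the 5 Ifit members on chromosome 19 between 34550694 and 34650009, Oas1a, Oas1g, Oas2 and Oas3 together on chromosome 5, the 3 Gbp members on chromosome 3, and Ifi27, Ifi27l2a and Ifi27l2b side by side on chromosome 12. Neighbours in such groups are similar in sequence, so reads of Ifit3 and Ifit3b, of Oas1a and Oas1g, of the Ifi27 genes, of the Gbp genes and of Ifi204 may have been divided between copies, and their separate counts are less certain than their sums.

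The whole epithelium library held 13967 barcodes and 164185392 UMIs, and the GFP library 13575 barcodes and 150348319 UMIs. Barcodes with 500 genes, 1000 UMIs and no more than 25% mitochondrial UMIs were kept, which left 7762 and 5767 cells with medians of 14160 and 15821 UMIs. The libraries shared 60 barcodes. Clusters were named from marker genes as stem/TA-like (stem cells and their dividing progeny), colonocyte-like (absorptive), goblet-like or enteroendocrine-like, with few tuft-like, T/NK-like and fibroblast-like cells. Clusters that met no marker rule stayed unnamed. Those of low depth held 1447 cells of the whole epithelium library and 1444 of the GFP library, and the deeper ones 1561 and 610. Haemoglobin genes led 2 clusters of the whole epithelium library (c1 and c7). Levels are given as CPM, a gene's UMIs for every 1000000 UMIs of the same library or class.

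Across all kept cells, every member was lower in the GFP library than in the whole epithelium library, although 3 differences were within counting error. The summed level of the 38 genes was 2827 CPM (2818 to 2836) in the whole epithelium library and 1372 CPM (1365 to 1379) in the GFP library, 2.06-fold lower in the latter (log2 ratio -1.04, interval -1.05 to -1.03). The median log2 ratio of the members was -0.74, against -0.03 over the 15223 genes with at least 20 UMIs. At least 2-fold lower were 14 members (36.8%), against 10.0% of all genes, and none of the 38 was at least 2-fold higher, against 3.97% of all genes. In cells with no more than 10% mitochondrial UMIs, Gbp2, Gbp7 and Trim25 were higher in the GFP library (log2 ratios 0.14, 0.048 and 0.053) and the other 35 lower. Being lower at all was common, at 53.7% of all genes, so the count of 38 of 38 is read beside that share. The interval of the ratio lay below 0 for 35 members and included 0 for Trim25, Irf9 and Gbp2. The share of all genes with an interval below 0 was not counted here. Ifi27l2b alone supplied a large share of the sum, and without it the summed log2 ratio was -0.78.

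**Figure D1:**
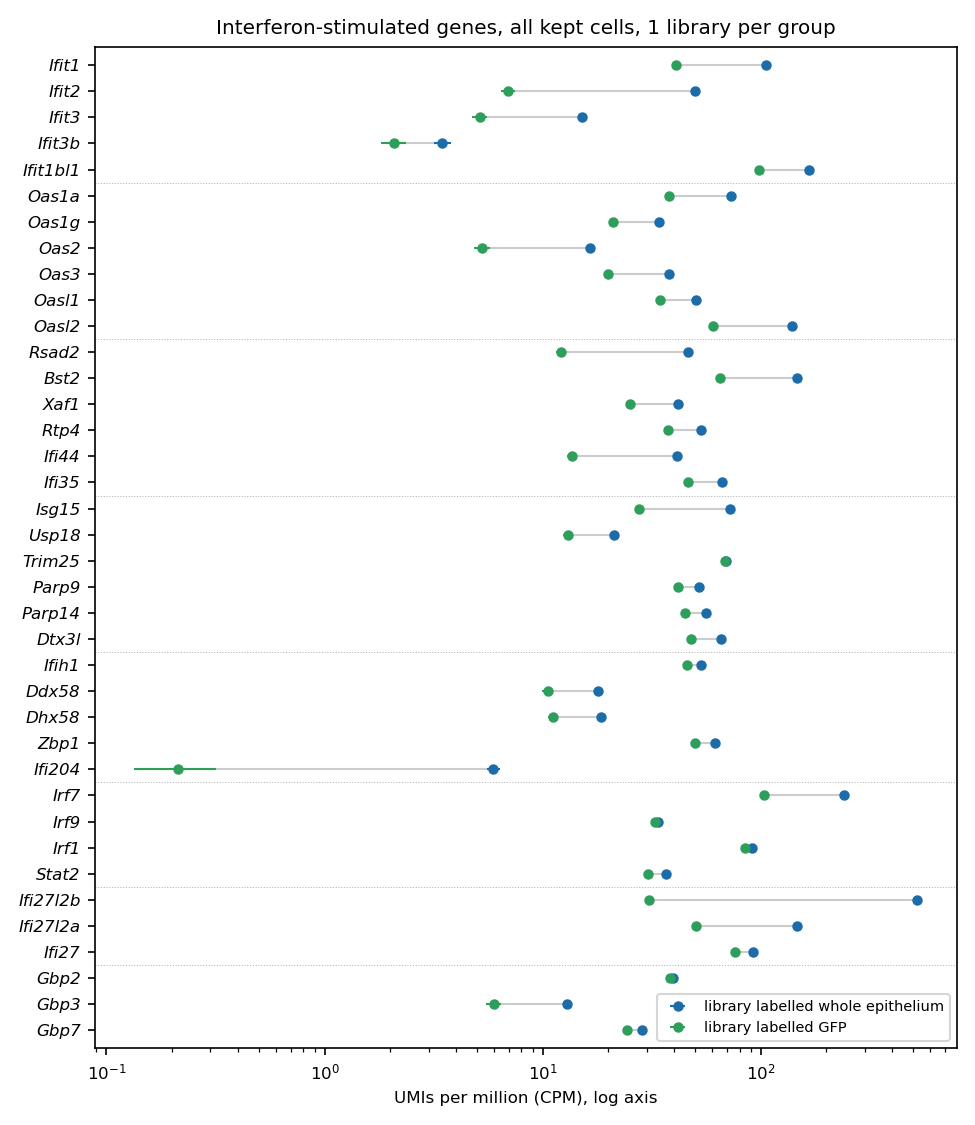
CPM (log axis) of each of the 38 members in the kept cells, with whole epithelium in blue and GFP in green, in groups by role separated by dotted lines. Points are 1 library each and bars are 95% Poisson intervals, often hidden by the point. Every green point lies left of or on its blue point, furthest for Ifi204 and Ifi27l2b and not visibly for Trim25.

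The IFIT proteins bind viral RNA and block its translation, and all 5 Ifit members were lower in the GFP library. Ifit2 stood at 49.9 CPM in the whole epithelium library and 6.96 CPM in the GFP library, a log2 ratio of -2.84 (-2.95 to -2.73). Ifit1 stood at 105 and 40.9 CPM (log2 ratio -1.36). Ifit3 stood at 15.2 and 5.14 CPM (log2 ratio -1.57). These 3 were at least 2-fold lower. Ifit1bl1, the most abundant of the family, had 167 and 98.5 CPM (log2 ratio -0.76), and Ifit3b, the scarcest, had 3.47 and 2.08 CPM (log2 ratio -0.73). The family therefore did not share a single ratio.

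The OAS proteins make short oligoadenylates that switch on RNase L, and the OASL proteins are related forms that act mainly without that step. All 6 were lower in the GFP library, Oas2 and Oasl2 at least 2-fold. Oas2 stood at 16.5 and 5.26 CPM (log2 ratio -1.65). Oasl2, the most abundant, stood at 139 and 60.2 CPM (log2 ratio -1.21). Oas1a (73.4 and 38.01 CPM), Oas3 (37.96 and 19.9 CPM) and Oas1g (34.3 and 21.0 CPM) had log2 ratios of -0.95, -0.93 and -0.70. Oasl1 had the smallest difference of the family, with 50.6 and 34.4 CPM (log2 ratio -0.56).

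Among other antiviral effectors the differences ranged from 1.43-fold to 3.84-fold. Rsad2, which encodes viperin, a radical enzyme that makes a chain-terminating nucleotide, stood at 46.6 and 12.1 CPM (log2 ratio -1.94). Ifi44 stood at 41.1 and 13.6 CPM (log2 ratio -1.59). Bst2, which encodes tetherin, a membrane protein that holds budding viruses at the cell surface, stood at 147 and 65.3 CPM (log2 ratio -1.17). Those 3 were at least 2-fold lower. Xaf1, a gene linked to cell death, stood at 41.9 and 25.1 CPM, Rtp4 at 53.4 and 37.4 CPM, and Ifi35 at 66.1 and 46.3 CPM, and these were lower by less than 2-fold.

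Of the 6 genes of ISG15 and of ubiquitin and ADP-ribosyl transfer, only Isg15 was at least 2-fold lower. Isg15, the ubiquitin-like modifier itself, stood at 72.0 and 27.7 CPM (log2 ratio -1.38). Usp18, the protease that removes ISG15 and dampens receptor signalling, stood at 21.2 and 13.1 CPM (log2 ratio -0.69). Dtx3l, Parp14 and Parp9, enzymes that act together on chromatin and antiviral signalling, had log2 ratios of -0.46, -0.32 and -0.32. Trim25, a ubiquitin ligase that helps RNA sensing, stood at 69.4 and 68.8 CPM, and its interval (-0.06 to 0.03) included 0.

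The sensors of foreign nucleic acid included both the member with the largest ratio and members close to even. Ifi204, a DNA sensor of the interferon-inducible p200 family, had 821 UMIs (5.95 CPM) in the whole epithelium library and 23 UMIs (0.212 CPM) in the GFP library, a log2 ratio of -4.81 (-5.48 to -4.22). Ddx58, which encodes the RNA sensor RIG-I, stood at 17.9 and 10.6 CPM (log2 ratio -0.77), and its relative Dhx58 at 18.5 and 11.2 CPM (log2 ratio -0.73). Zbp1, a sensor of left-handed nucleic acid that can start cell death, stood at 61.6 and 49.9 CPM (log2 ratio -0.30). Ifih1, which encodes the long-RNA sensor MDA5, stood at 53.3 and 45.9 CPM (log2 ratio -0.22).

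Of the 4 transcription factors only Irf7 was at least 2-fold lower. Irf7, which amplifies interferon production and is itself induced, was the second most abundant member of the whole epithelium library at 242 CPM and stood at 103 CPM in the GFP library (log2 ratio -1.23). Stat2, a subunit of the signalling complex, stood at 36.8 and 30.6 CPM (log2 ratio -0.27). Its partner Irf9 stood at 33.7 and 32.7 CPM, and Irf1, a factor induced above all by interferon gamma, at 91.3 and 84.9 CPM. Irf9 did not differ beyond counting error (-0.11 to 0.02), and Irf1 was 1.08-fold lower.

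The Ifi27 genes encode small hydrophobic proteins of the mitochondrion and nuclear envelope. Ifi27l2b was the most abundant member of the whole epithelium library at 521 CPM and stood at 30.8 CPM in the GFP library, 17.0-fold lower (log2 ratio -4.08, interval -4.13 to -4.03). Ifi27l2a stood at 146 and 50.5 CPM (log2 ratio -1.53), and Ifi27 at 91.9 and 76.6 CPM (log2 ratio -0.26). The guanylate-binding proteins, GTPases that attack pathogen compartments, were also unequal. Gbp3 stood at 13.0 and 5.96 CPM (log2 ratio -1.12), Gbp7 at 28.4 and 24.5 CPM (log2 ratio -0.22), and Gbp2 at 39.5 and 38.2 CPM, with an interval of -0.11 to 0.01.

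Marker lists of other cells differed between the libraries in both directions. All 10 T and NK cell markers were at least 2-fold lower in the GFP library, with none at 0 in either library and a summed level of 161 CPM against 6.61 CPM. Xcl1 (log2 ratio -7.95), Gzma (-6.02), Cd3g (-5.12) and Cd7 (-5.10) were the most different of them. The 8 myeloid markers summed to 14.5 and 4.03 CPM, with none at 0, and Lyz2 (-4.13), Tyrobp (-3.92), Itgax (-1.41) and C1qb (-1.02) were at least 2-fold lower. The 8 goblet markers, by contrast, summed to 6479 CPM in the whole epithelium library and 15463 CPM in the GFP library, with Clca1 (3.89), Fcgbp (2.65), Zg16 (1.79) and Muc2 (1.06) the most different. Summed log2 ratios were also below 0 for fibroblast (-1.96), mast (-2.68), plasmacytoid dendritic (-0.22) and enteroendocrine (-0.51) markers. They were above 0 for tuft (1.11), endothelial (1.14), smooth muscle (1.35) and B and plasma cell (0.34) markers, some from few UMIs. Without the T/NK-like and fibroblast-like clusters the median log2 ratio of the members was -0.74 and all 38 stayed lower. Of 16 genes induced by tissue dissociation 15 were lower in the GFP library (median log2 ratio -0.84), Atf3 (-1.53), Hspa1a (-1.35) and Zfp36 (-1.01) at least 2-fold, and their part in the result was not tested.

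Within every class large enough to compare, the members were lower in the GFP library in the median. The median log2 ratio was -0.72 in stem/TA-like cells, -0.98 in colonocyte-like cells, -0.64 in goblet-like cells and -0.66 in enteroendocrine-like cells, while the median over all genes lay between -0.046 and 0.069. At least 2-fold lower were 14 of 38 members in stem/TA-like cells (4.73% of all genes), 18 of 38 in colonocyte-like cells (5.83%), 9 of 38 in goblet-like cells (5.16%) and 14 of 36 in enteroendocrine-like cells (5.79%). No member was at least 2-fold higher in any of these classes, against 4.61%, 4.66%, 3.52% and 3.69% of all genes in the same order. Lower by any amount were 38, 38, 36 and 31 members, against 40.0%, 55.2%, 48.3% and 49.1% of all genes. The summed level was 1502 against 704 CPM in stem/TA-like cells and 6131 against 2493 CPM in colonocyte-like cells. It was 1744 against 937 CPM in goblet-like cells and 2496 against 1312 CPM in enteroendocrine-like cells. Ifi27l2b alone stood at 365 against 26.1, 809 against 38.9, 370 against 24.6 and 446 against 25.4 CPM in the same order. That gene is also part of the sums by cluster and by bin below. In colonocyte-like cells the T and NK markers summed to 10.3 and 1.11 CPM (2 of 10 at 0 in the GFP library) and the goblet markers to 661 and 2166 CPM, and the part of those differences was not tested.

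In colonocyte-like cells the intervals of all 38 members lay below 0. Ifit2 stood at 172 and 18.0 CPM there (log2 ratio -3.25), Rsad2 at 109.7 and 20.7 CPM (-2.40), Oas2 at 38.6 and 6.71 CPM (-2.52) and Ifi27l2b at 809 and 38.9 CPM (-4.38). In stem/TA-like cells 32 intervals lay below 0 and 6 included 0, those of Ifit3b, Ifit1bl1, Irf9, Oasl1, Ifih1 and Trim25. Bst2 stood at 166 and 66.4 CPM in stem/TA-like cells (-1.32). Its log2 ratio was -1.22 in colonocyte-like, -0.86 in goblet-like and -1.75 in enteroendocrine-like cells. In goblet-like cells 36 members were lower, and Irf9 (0.09) and Trim25 (0.03) were higher with intervals that included 0. Rsad2 was again among the most different there, at 40.5 and 9.92 CPM (-2.03). In enteroendocrine-like cells, with 338 and 115 cells, 18 of 36 intervals included 0. The share of all genes with an interval below 0 was not counted in these classes. In the bins of the crypt-to-surface ranking described below it was 17.1% to 29.4%.

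These class values join clusters that were mostly particular to a library. The colonocyte-like cells came from clusters c6, c11 and c13 in the whole epithelium library and from c5, c14 and c16 in the GFP library, the stem/TA-like cells mainly from c7 and c9 against c4, and the goblet-like cells mainly from c12, c15 and c23 against c2. Each GFP cluster was therefore also set beside the whole epithelium cluster of its class that shared most of its leading genes, a comparison chosen after the values were seen. Members were among the 10 leading genes of 4 of these clusters although none took part in the clustering: Ifit2 in c6, Ifit2 and Ifit1bl1 in c11, Gbp2 in c14 and Ifi27l2a in c16. The ratios of the members depended on which clusters were compared.

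Cluster c5 against c11 (sharing 2010109I03Rik, Ly6g and Slc9a3) had a median log2 ratio of -1.70, with 37 of 38 members lower (48.7% of all genes) and summed levels of 2223 and 8476 CPM. Cluster c16 against c6 (sharing Car1, Cyp2c55, Tmigd1, Aldh1a1, Slc51a and Slc10a2) had a median of -1.24, with 36 of 38 lower (51.0% of all genes) and sums of 2583 and 6787 CPM. Cluster c14 against c13 (sharing Atp12a, Tgm3, Ly6g, Saa1 and Eno3) went the other way, with a median of 0.068, 16 of 37 lower (62.6% of all genes), 21 higher and sums of 2963 and 2503 CPM. In that pair Gbp2 was 326 CPM in c14 and 20.4 CPM in c13 (log2 ratio 3.997, interval 3.77 to 4.24), and Gbp7 (2.61), Gbp3 (1.995), Ifit1bl1 (1.55), Ifit2 (1.51) and Irf1 (1.496) were higher as well. Ifi27l2b (-4.19) and Ifi27l2a (-3.44) remained lower in c14. Gbp2 was lower in the pair c16 against c6, at 5.89 CPM in c16 and 149 CPM in c6. So the near-even Gbp2 level of the whole libraries joined clusters with large differences in both directions.

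The goblet-like pair c2 against c15 had a median of 0.082, with 16 of 36 lower (38.1% of all genes) and 20 higher. Its sum was lower all the same (937 against 1250 CPM). Most of that difference lay in Ifi27l2b, at 24.6 CPM in c2 and 315 CPM in c15. The stem/TA-like pair c4 against c9 had a median of -0.93 and all 38 members lower (40.5% of all genes). The median over all genes lay between -0.13 and 0.12 in the 5 pairs. The median of the members was below 0 in 3 of the 5 pairs. In the goblet-like pair it was slightly below that of all genes (0.082 against 0.12). In c14 against c13 it was above that of all genes (0.068 against -0.13). Ifi27l2b had a log2 ratio below -3 in all 5 pairs.

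**Figure D2:**
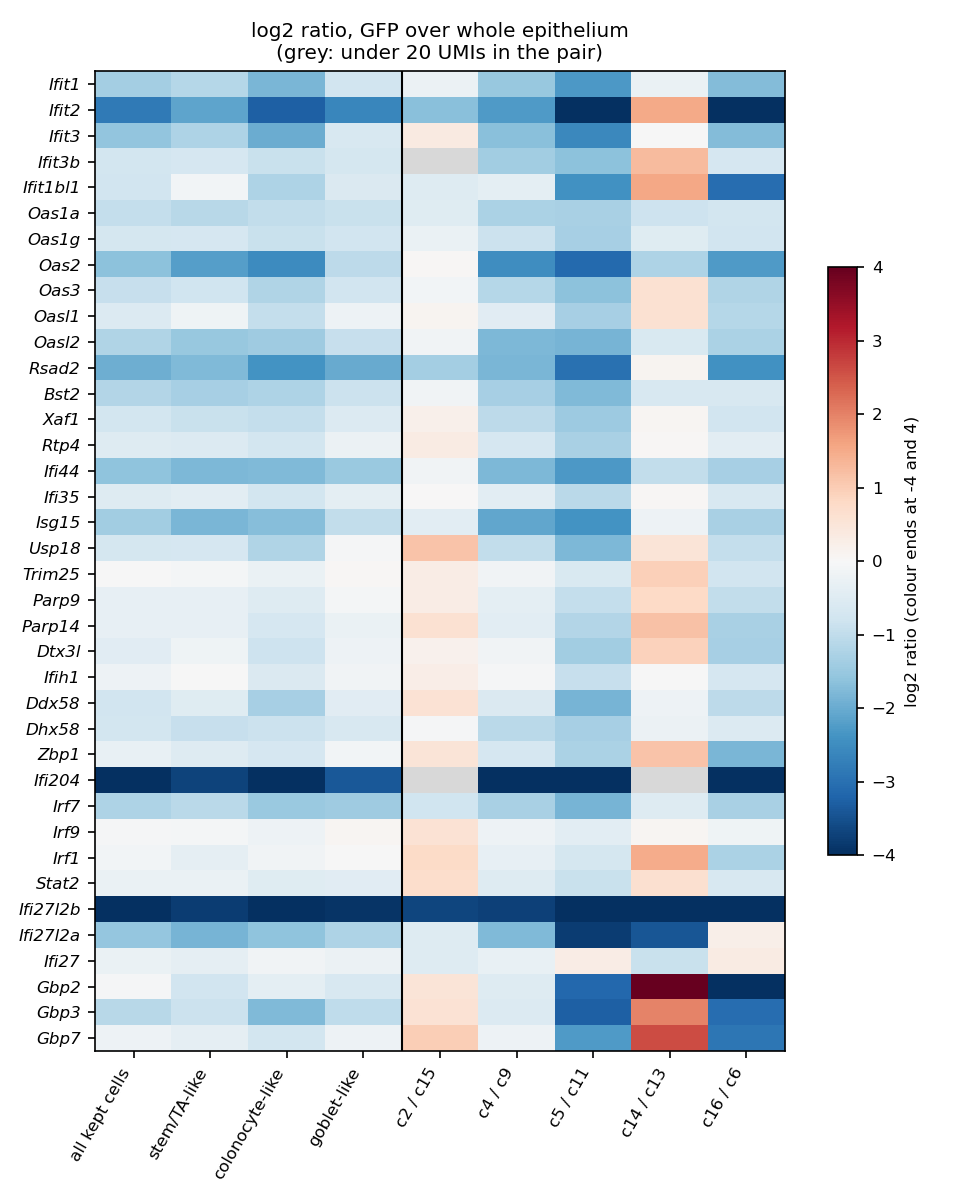
Log2 ratio of the GFP library over the whole epithelium library for each member (rows) over all kept cells and 3 classes (left of the line) and in 5 pairs of clusters, GFP cluster named before whole epithelium cluster (right of the line). Blue is lower and red higher in GFP. The left columns are almost wholly blue, while c14 / c13 and c2 / c15 hold red and blue members and Ifi27l2b is dark blue in every column.

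Among the 4 classes, colonocyte-like cells had the highest level of nearly every member. In the whole epithelium library this held for 36 of 38 members, with the interval apart from the next class for all 36. Of all genes 19.5% were highest in colonocyte-like cells, 12.2% with the interval apart. In the GFP library it held for 32 of 37 members with at least 20 UMIs, 23 of them apart, against 18.0% and 10.6% of all genes. Stem/TA-like cells had the lowest level of 27 members in the whole epithelium library and 30 in the GFP library, against 20.9% and 13.9% of all genes. Ifit1 stood at 12.6 CPM in stem/TA-like, 28.3 in goblet-like, 65.2 in enteroendocrine-like and 359 in colonocyte-like cells of the whole epithelium library. In the GFP library the same order gave 5.76, 16.8, 24.2 and 101 CPM. Irf7 ran from 65.9 CPM in stem/TA-like to 639 CPM in colonocyte-like cells of the whole epithelium library, and from 31.0 to 229 CPM in the GFP library. Bst2 and Ifi27 did not follow that order. Bst2 was highest in stem/TA-like cells of the whole epithelium library (166 CPM, against 144 in colonocyte-like and 126 in goblet-like cells). Ifi27 was highest in enteroendocrine-like cells of both libraries (162 and 149 CPM). The colonocyte-like clusters of the whole epithelium library were unequal, with summed members at 6787 CPM in c6, 8476 in c11 and 2503 in c13. In c13 Rsad2 (16.7 CPM) stood below goblet-like cells (40.5 CPM), while Ifit1bl1 (210 CPM) stood above enteroendocrine-like cells (119 CPM).

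To follow position, stem/TA-like and colonocyte-like cells of each library were ranked by a surface score, the mean of 10 surface genes minus that of 10 crypt genes, and cut into 5 bins of equal size, from bin 1 (crypt-most) to bin 5 (surface-most). None of the members is in that score. The summed members stood at 1288, 1686, 4062, 6444 and 7623 CPM from bin 1 to bin 5 in the whole epithelium library, and at 639, 940.3, 1891, 2623 and 3561 CPM in the GFP library. The surface-most bin was thus 5.92-fold and 5.58-fold above the crypt-most bin (log2 ratios 2.57 and 2.48). The largest ratio between neighbouring bins was at bins 2 and 3, where stem/TA-like cells give way to colonocyte-like cells. Bin 1 held 0% and bin 5 100% colonocyte-like cells in both libraries, so these end bins also differ in class. Bins 3 to 5, with at least 89.8% colonocyte-like cells, ran from 4062 to 7623 CPM and from 1891 to 3561 CPM. At least 2-fold higher at the surface were 33 of 38 members in the whole epithelium library, against 15.9% of all genes, and 31 of 37 in the GFP library, against 12.6%. The median log2 ratio was 2.67 and 2.19, against -0.76 and -0.99 over all genes tested. Levels peaked in bin 5 for 27 members in the whole epithelium library and 25 in the GFP library. The share of all genes that peaked there was not counted. Median UMIs per cell went down along the same ranking, from 26925 to 11559 and from 28297 to 13858, and median mitochondrial shares went up, from 6.47% to 15.1% and from 5.67% to 16.5%. In cells with at least 10000 UMIs the summed log2 ratios were 2.43 and 2.42, an alternative chosen after seeing the data.

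Ifit1bl1 and Ifit1 had the steepest gradients in both libraries. Ifit1bl1 stood at 7.74, 19.3, 264, 626 and 1018 CPM from bin 1 to bin 5 of the whole epithelium library and at 9.89, 27.0, 85.5, 249 and 662 CPM in the GFP library, log2 ratios of 7.04 and 6.06. It was the most abundant member in bin 5 of both libraries. Ifit1 had log2 ratios of 6.49 and 5.36, Ifit2 5.56 and 5.02, Ifit3b 5.00 and 5.05, and Ifit3 4.82 and 4.57. Ifi204 had 5.78 in the whole epithelium library and too few UMIs in the GFP library. Steep outside that family were also Oas3 (5.08 and 4.65), Zbp1 (4.46 and 4.41), Isg15 (4.38 and 4.09), Irf7 (4.17 and 3.71) and Gbp2 (3.74 and 4.87). The median of the OAS genes was 3.73 and 3.27, and that of the sensors 2.99 and 2.24.

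A few members had small ratios along the ranking, and Bst2 ran against it. Bst2 was the only member lower at the surface, in the whole epithelium library at 152 CPM in bin 1 and 95.7 CPM in bin 5 (log2 ratio -0.67) and in the GFP library at 66.9 and 36.4 CPM (-0.88). Irf9 stood at 26.1 and 50.0 CPM in the whole epithelium library (0.94) and 25.9 and 39.6 CPM in the GFP library (0.61). Ifi27l2b was higher at the surface by a log2 ratio of 1.53 in the whole epithelium library and by 0.26 in the GFP library. The type I receptor gene Ifnar1, which is not a member, was nearly level (0.18 and -0.29). The type III receptor gene Ifnlr1 was higher at the surface (3.20 and 1.97), from few UMIs, and so was the interferon gamma receptor gene Ifngr1 (1.93 and 1.74).

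**Figure D3:**
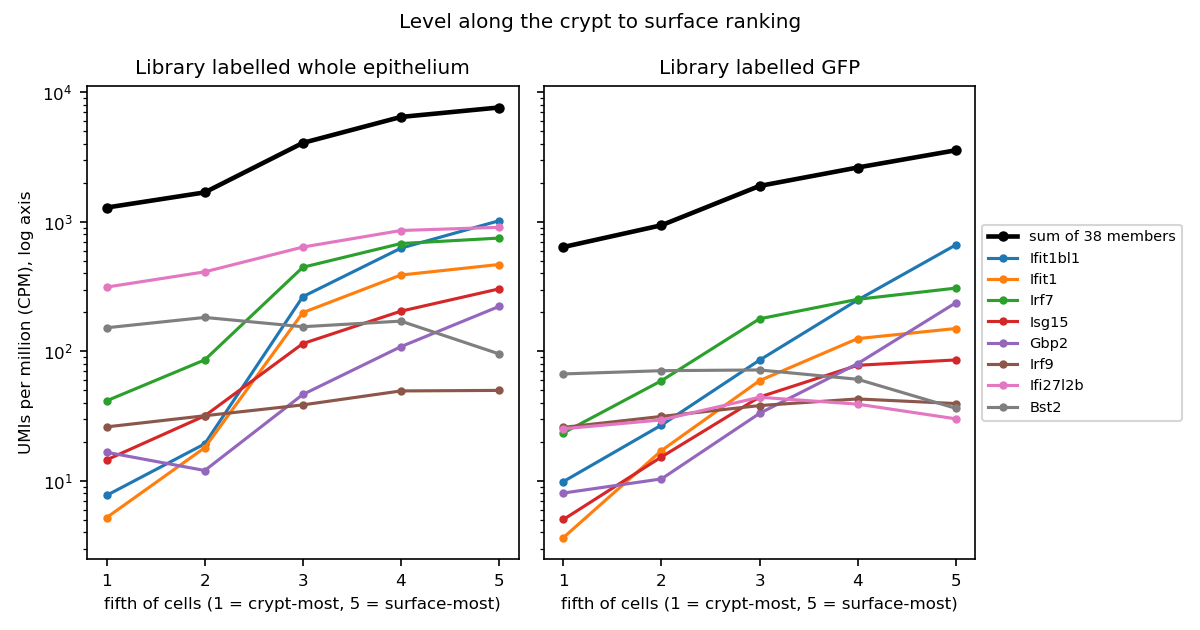
CPM (log axis) of the summed 38 members (black) and of 8 members in 5 equal bins of stem/TA-like and colonocyte-like cells ranked from crypt to surface, with whole epithelium on the left and GFP on the right. Ifit1bl1 and Ifit1 climb most, Irf9 climbs by a log2 ratio of 0.94 and 0.61, and Bst2 ends lower than it began in both libraries.

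Comparing the libraries bin by bin, the median log2 ratio of the GFP library over the whole epithelium library was -0.55, -0.27, -0.73, -1.07 and -0.93 from bin 1 to bin 5. The median over all genes in the same bins was 0.074, 0.012, -0.10, -0.11 and -0.14. Intervals lay below 0 for 27 of 36 members with at least 20 UMIs in bin 1, and for 19, 34, 36 and 34 of 38 in bins 2 to 5. Over all genes the share with an interval below 0 was 17.1%, 23.9%, 28.7%, 28.6% and 29.4%. Intervals above 0 occurred in the crypt-most bins only, for Ifit1bl1 in bins 1 and 2 and for Oasl1 and Ifih1 in bin 2. In bin 5 Gbp2 stood at 222 CPM in the whole epithelium library and 237 CPM in the GFP library, and Irf1 at 178 and 180.4 CPM. Bins were ranked within each library, and bin 2 held 0.795% colonocyte-like cells in the whole epithelium library and 18.4% in the GFP library, so equal bins are not equal positions.

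The members were also unevenly spread over single cells of a class. Each cell with at least 4000 UMIs was thinned to 4000, and cells were split by UMIs of 9 strongly induced genes (Ifit1, Ifit2, Ifit3, Ifit3b, Isg15, Rsad2, Oasl1, Oasl2 and Usp18), with the other 29 members as the readout. At least 1 UMI of the 9 genes was found in 55.5% of cells of the whole epithelium library (75.1% unthinned) and 39.4% of the GFP library (66.4% unthinned). This left out 2039 and 1673 shallower cells. The share was 85.1% and 63.6% in colonocyte-like cells, 59.1% and 37.3% in enteroendocrine-like cells, 44.2% and 26.4% in goblet-like cells and 31.8% and 18.0% in stem/TA-like cells. The order of the classes was the same in both libraries. No class that should lack these genes is at hand, and the part of free RNA in these shares was not tested.

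The other 29 members stood at 3888 CPM in cells with a UMI of the 9 genes and 1287 CPM in cells without in the whole epithelium library (log2 ratio 1.59), and at 2067 and 942 CPM in the GFP library (1.13). Because the classes differ in level, the comparison was repeated within them. In colonocyte-like cells the log2 ratio was 1.86 in the whole epithelium library and 0.60 in the GFP library. In goblet-like cells it was 0.92 and 0.81, and in stem/TA-like cells 0.65 and 0.38. Colonocyte-like cells without a UMI of the 9 genes stood at 1681 CPM of the other members in the whole epithelium library and 1776 CPM in the GFP library. Those with 11 or more stood at 10373 CPM in the whole epithelium library and 5844 CPM in the GFP library, and made up 22.0% and 2.69% of the class. The other 29 members include Ifi27l2b. Over all colonocyte-like cells it stood at 809 CPM in the whole epithelium library and 38.9 CPM in the GFP library. Cells are not replicates, and position along the crypt also moves with these levels. Clusters within the colonocyte-like class differed in summed members as well. These were 6787, 8476 and 2503 CPM in c6, c11 and c13 of the whole epithelium library. In c5, c14 and c16 of the GFP library they were 2223, 2963 and 2583 CPM. The part of these cluster differences in the ratios of 1.86 and 0.60 was not tested.

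**Figure D4:**
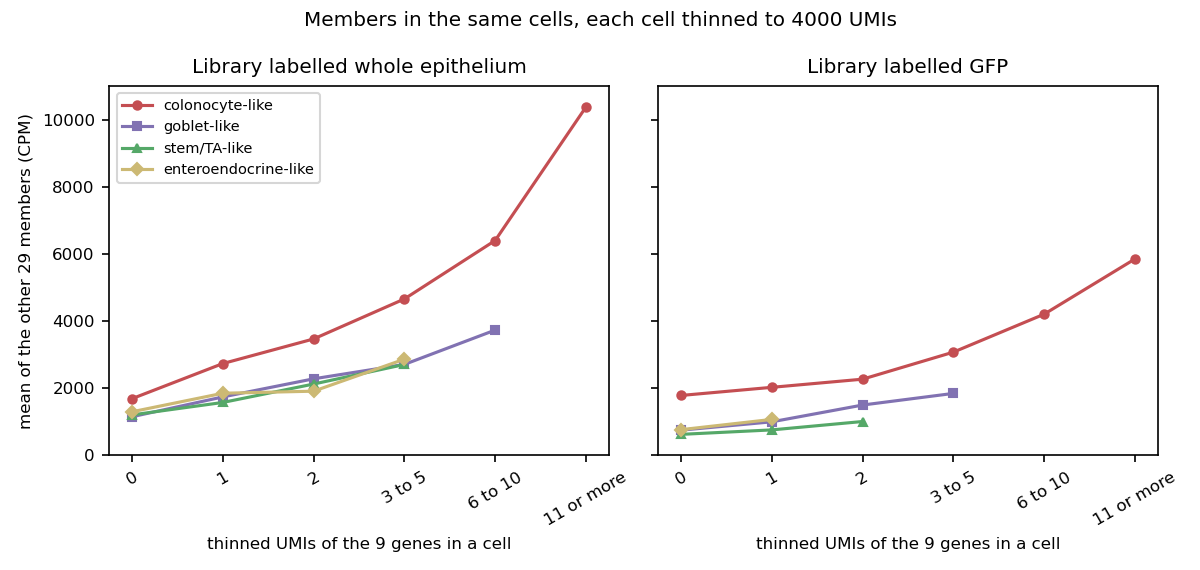
Mean CPM (linear axis) of the other 29 members against the number of UMIs of the 9 genes in a cell, for 4 classes with whole epithelium on the left and GFP on the right, each cell thinned to 4000 UMIs. The highest point, at 10373 CPM, is that of cells with 11 or more UMIs among colonocyte-like cells of the whole epithelium library.

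The ligands of the pathway were almost undetected. Of 20 interferon genes 17 had no UMI in the whole epithelium library and 17 none in the GFP library. All Ifna genes listed, Ifnab, Ifne and Ifnl2 were at 0 in both, and a count of 0 allows up to 3 UMIs in a library. Ifnb1 had 1 and 0 UMIs, Ifnk 3 and 1, and Ifnl3 0 and 1, all at or under that limit. Ifng, the interferon of T and NK cells, had 108 UMIs in the whole epithelium library and 2 in the GFP library (log2 ratio -5.41). In colonocyte-like cells no UMI of any interferon gene was counted.

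Receptor genes, sensing genes and negative regulators differed less than the members. Of 6 receptor genes 3 were lower and 3 higher (median log2 ratio 0.06). Of 7 sensing genes with at least 20 UMIs 3 were lower, and of 5 negative regulators 3. Among the latter Socs1, a brake on JAK kinases, stood at 19.8 and 13.1 CPM (-0.60), and Ptpn6, a phosphatase gene, was higher at 16.2 and 30.5 CPM (0.91). No gene of those 3 groups was at least 2-fold different over all kept cells. Within classes, Ptpn6 was at least 2-fold higher in stem/TA-like (1.59) and goblet-like cells (1.31), Tmem173, the STING gene, was 2-fold higher in stem/TA-like cells (1.00), and Ifnar2, from 37 and 8 UMIs, was lower in colonocyte-like cells (-2.37).

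Other interferon-stimulated genes, outside the 38, followed the members in part. Of 35 with at least 20 UMIs, 30 were lower in the GFP library, against 53.7% of all genes. At least 2-fold lower were 12, against 10.0% of all genes (median log2 ratio -0.70). Ifitm1 (-3.34), Slfn2 (-2.87), the chemokine gene Cxcl9 (-2.65) and Ifit1bl2 (-2.11) were the most different of them, and the membrane proteins Ifitm2 and Ifitm3 were higher (0.25 and 0.35). By class, the median of this list was -0.89 in colonocyte-like, -0.37 in stem/TA-like and -0.44 in goblet-like cells. Its summed log2 ratio was -0.91, -0.07 and 0.05 in the same order. Antigen presentation genes, which interferon gamma also induces, went apart. The 12 genes of MHC class I and peptide loading had a median of -0.02 over all kept cells, with 6 lower and 6 higher. Their median was -0.40 in colonocyte-like cells (10 lower, 2 higher). It was 0.19 in stem/TA-like cells (5 lower, 7 higher) and 0.08 in goblet-like cells (3 lower, 9 higher). All 7 MHC class II genes were higher in the GFP library (median 1.72), 6 of them at least 2-fold, with H2-Aa at 68.8 and 326 CPM (2.24), followed by H2-DMb1 (2.05), H2-Ab1 (1.75) and H2-Eb1 (1.72).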

How the data were processed

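For 2 droplet libraries the authors deposited raw UMI counts, 1 value for each gene in each barcode called as a cell, with no normalisation. Per the submitters' processing notes these were made with Cell Ranger 2.1.1 on mm10, while the headers of the matrices give 3.1.0. Which of them applies is not known. Per the labels' protocols, crypt cells were released with EDTA, dissociated by enzymes and, for the GFP library, sorted. No deposited column of sample values was left unused (0).

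From the counts, cells were kept at 500 genes, 1000 UMIs and 25% mitochondrial UMIs, and UMIs were summed per library, class, cluster or bin and divided by the summed total (CPM). Intervals are exact Poisson for a level, exact conditional binomial for a ratio and exact binomial for a share, at 95%. Ratios were counted for genes with at least 20 UMIs over both libraries, a library at 0 taken at a floor of 3 UMIs. Called means at least 2-fold. The ratio code was tested on simulated data.

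Scrublet called 0 and 1 (0.0173%) cells as doublets, a share under 0.5%, so the caller was not relied on and all cells stayed in. Clustering (scanpy 1.11.5, leidenalg 0.10.2) used 2000 variable genes less the members and the interferon and MHC list genes, 30 components, 15 neighbours and resolution 1. Each cluster was scored for every class by how far the class markers exceeded the library's median cluster (mean log2 fold, pseudocount 10 CPM), and took the best class given a score of 0.5 and 3 markers raised 2-fold. Clusters with under 1/3 of the library's median UMIs needed a score of 3, a value set after a first version had named such clusters as goblet-like. They hold 18.6% and 25.0% of kept cells and stay unnamed.

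The 38 members are all accounted for by role, and genes of other lists are named when at least 2-fold different with an interval off 0, up to 4 per list and direction by size. Socs1, Ptpn6, the genes named within classes, Ifitm2, Ifitm3 and the receptor genes along the ranking were named after their values were seen. The members and lists were chosen with earlier results of these data known. Promoter letters are from RefSeq, and gene positions from GENCODE M21. Alternatives covered cell filters, scaling, gene filters, cluster settings, binning and thinning.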

Additional observations from a re-analysis of the deposited data

Results flagged for a closer look

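Some members had a ratio between the libraries that was above 0 in part of the crypt-to-surface ranking and below 0 in the rest, with both intervals off 0. None of these differences between bins was tested, since each library is 1 sample. For Ifit1bl1 the log2 ratio of the GFP library over the whole epithelium library was 0.35 in bin 1 and 0.48 in bin 2, and then -1.63, -1.33 and -0.62 in bins 3 to 5. For Oasl1 it was 0.36 in bin 2 and -0.62, -1.02 and -0.83 in bins 3 to 5. For Ifih1 it was 0.34 in bin 2 and -0.38, -0.50 and -0.47 in bins 3 to 5. The mix of classes in bin 2 differed between the libraries, as given above, and its part was not tested.

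Within colonocyte-like cells the summed members also went in opposite directions in different pairs of clusters. The log2 ratio of the sum was -1.93 for cluster c5 over c11 and -1.39 for c16 over c6, but 0.24 for c14 over c13. This difference between pairs was not tested.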

How the results depend on the processing

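No paired analysis was possible because each group holds 1 library. The median over all kept cells was -0.85 with every barcode kept, where the median of all genes was also lower (-0.12), and 14 or 16 members were at least 2-fold lower under all settings run. The summed log2 ratio was -1.10 with every barcode, -1.03 with a total without mitochondrial and the 20 most abundant genes, -1.06 without shallow unnamed clusters and -0.78 without Ifi27l2b. With at most 10% mitochondrial UMIs 35 members were lower, and Gbp7 turned to 0.048, with Gbp2 and Trim25 also above 0. With the trimmed total Trim25 was above 0. Within classes the median was -0.55 for stem/TA-like cells at resolution 2, -0.76 and -0.79 for colonocyte-like cells when clustered with the members or at resolution 0.5, -1.10 with equal weight per cell, and -0.35, -0.48 and -0.48 for goblet-like cells when clustered with the members, at resolution 2 and with equal weight. At resolution 0.5 fewer than 100 stem/TA-like cells were left in a library, so no value was given. Single pairs of clusters, chosen after seeing the data, gave -0.93 (c4 against c9), -1.70 (c5 against c11), -1.24 (c16 against c6), 0.068 (c14 against c13) and 0.082 (c2 against c15), so the last 2 turned the direction. The surface-to-crypt log2 ratio was 2.37 and 2.096 over all epithelial cells, 2.80 and 2.52 with equal weight, 2.54 and 2.39 with the deeper unnamed clusters and 2.43 and 2.42 in deep cells. The log2 ratio of the other members in cells with the 9 genes was 1.46 and 1.01 thinned to 2000 UMIs, 1.21 at 8000 in the GFP library, and 1.86 and 0.60 within colonocyte-like cells. The causes of these shifts were not tested. Depth limits Ifi204, Ifit3b, the interferon genes and enteroendocrine-like cells most.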
